A study of Mus musculus with 45 samples.

Results

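miR-320 is a microRNA hairpin that gives 2 mature arms, miR-320-5p and miR-320-3p, and the 2 arms were followed here in the alveolar macrophages (AM) of mice after filtered air (FA) or ozone (O3). The members were the entries mmu-mir-320-5p and mmu-mir-320-3p, which are 2 of the 476 miRNAs listed in any table and 2 of the 206 listed in all 6 tables. They had been chosen on the O3 against FA values of these tables, in which the 5p arm was higher after O3 while the 3p arm stayed level, so the O3 against FA values of both arms, and of their ratio, are given as a description with no test. The precursor gene Mir320 lies at chr14:70443510-70443591 on the plus strand of GRCm38 (GENCODE M21) and is 82 bases long. The nearest end of the protein-coding gene Polr3d, which is transcribed from the opposite strand, is 62 bases away. Overlap of Mir320 with other annotated genes was not examined.

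Most miRNA precursors are cut from a longer transcript by the nuclease Drosha. The miR-320 precursor is made without that step: its 5' end is the start of transcription, it carries a cap, it leaves the nucleus by another export route than most precursors, and only Dicer cuts it afterwards. Because the 5' end of the 5p strand keeps the cap, the 3p strand is the one usually loaded into Argonaute, and the 5p strand is the arm usually discarded.

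Small RNA was sequenced from AM obtained by bronchoalveolar lavage from 45 mice (21 males and 24 females, 12 weeks old), killed 18 h after a 3 h exposure to FA or O3. Humanized transgenic SP-A2 mice carried the human surfactant protein variant SP-A2 (1A0), co-ex mice carried both SP-A1 (6A2) and SP-A2 (1A0), and KO mice carried neither. SP-A KO mice of the C57BL/6J strain had been the starting point of both transgenic lines, so the mice of all groups lacked mouse SP-A, and the FA mice of each genotype and sex were the controls. There were 3 SP-A2 males after each exposure, 4 co-ex males after FA and 3 after O3, and 4 mice in every other group of genotype, sex and exposure. According to the study's methods the estrous cycle of the females was synchronized. In this bulk RNA, fewer cells of a type and less RNA per cell cannot be told apart.

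Between 137965 and 2884013 reads per mouse (median 766213) lay on the listed miRNAs. All 6 markers fixed for a blood-lineage macrophage (miR-142a-3p, miR-142a-5p, miR-223-3p, miR-21a-5p, miR-146a-5p and miR-155-5p) were listed in all 6 tables, and their summed level ranged from 3690 to 191555 reads per 1000000 listed reads (RPM). Of the markers of other cells, the 4 erythroid miRNAs (2 or 3 listed per table) summed to between 1290 and 369419 RPM. The epithelial list (7 to 9 of 10 listed) and the mesenchymal list (6 or 7 of 8 listed) had a higher group median after O3 than after FA in 6 of 6 tables, from 3714 to 8520 after FA against 8801 to 14139 after O3 for the former, and from 1383 to 6010 against 7456 to 13866 RPM for the latter. The 2 endothelial miRNAs, miR-126a-3p and miR-126a-5p, were not listed in 3 tables and in the others summed to at most 36.4 RPM after FA and 1073 after O3. The macrophage markers, the erythroid list and the neutrophil and myeloid marker miR-223-3p had a higher group median after O3 in 3 of 6 tables. Lymphoid miR-150-5p had one in 4 of 6 tables. Whether any of these cells played a part in the results below was not tested.

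The 6 miRNAs whose levels followed the 2 arms most closely over the mice were 3 for each arm. One of them, miR-328-3p, which followed the 3p arm, is named only, and the mature sequences of the other 5 are shown, because the later comparison of the arms turns on them. They are from RefSeq (GRCm38.p6), 5' to 3', with the seed (bases 2 to 8), the stretch that pairs with targets, in capitals.
miR-3473e, followed the 5p arm, chr5:31667296-31667316, minus strand: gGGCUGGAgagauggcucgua
miR-6538, followed the 5p arm, chr12:26414970-26414988, minus strand: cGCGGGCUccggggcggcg
miR-3060-5p, followed the 5p arm, chr11:4139377-4139396, plus strand: gGGAGUGCuucgugcuucug
miR-423-5p, followed the 3p arm, chr11:77078122-77078144, minus strand: uGAGGGGCagagagcgagacuuu
miR-8114, followed the 3p arm, chr1:153899989-153900009, plus strand: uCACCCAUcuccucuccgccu
None of these 5 miRNAs shares its seed with another of them, and the 5 precursors lie on 4 chromosomes, none of them chromosome 14. The mature strands were 61.9%, 94.7%, 60%, 56.5% and 61.9% G and C, in the order shown, against a median of 50% over the 178 of the 206 shared miRNAs that matched the RefSeq table.

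The 3p arm was the abundant one. It had more reads than the 5p arm in 45 of 45 mice, with between 1152 and 33873 reads per mouse, and ranked between 10th and 68th (median 27th) among the miRNAs of a mouse. The 5p arm had between 0 and 1684 reads and was at 0 in 8 of 45 mice, of which 6 were among the 23 FA mice and 2 among the 22 O3 mice. The arms were compared inside each mouse by the share of 5p reads in the reads of both arms, which does not depend on how mice were scaled to each other. Intervals on a share are 95% exact binomial intervals, which cover counting error only, since reads amplified by PCR are not independent molecules.

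**Figure D1:**
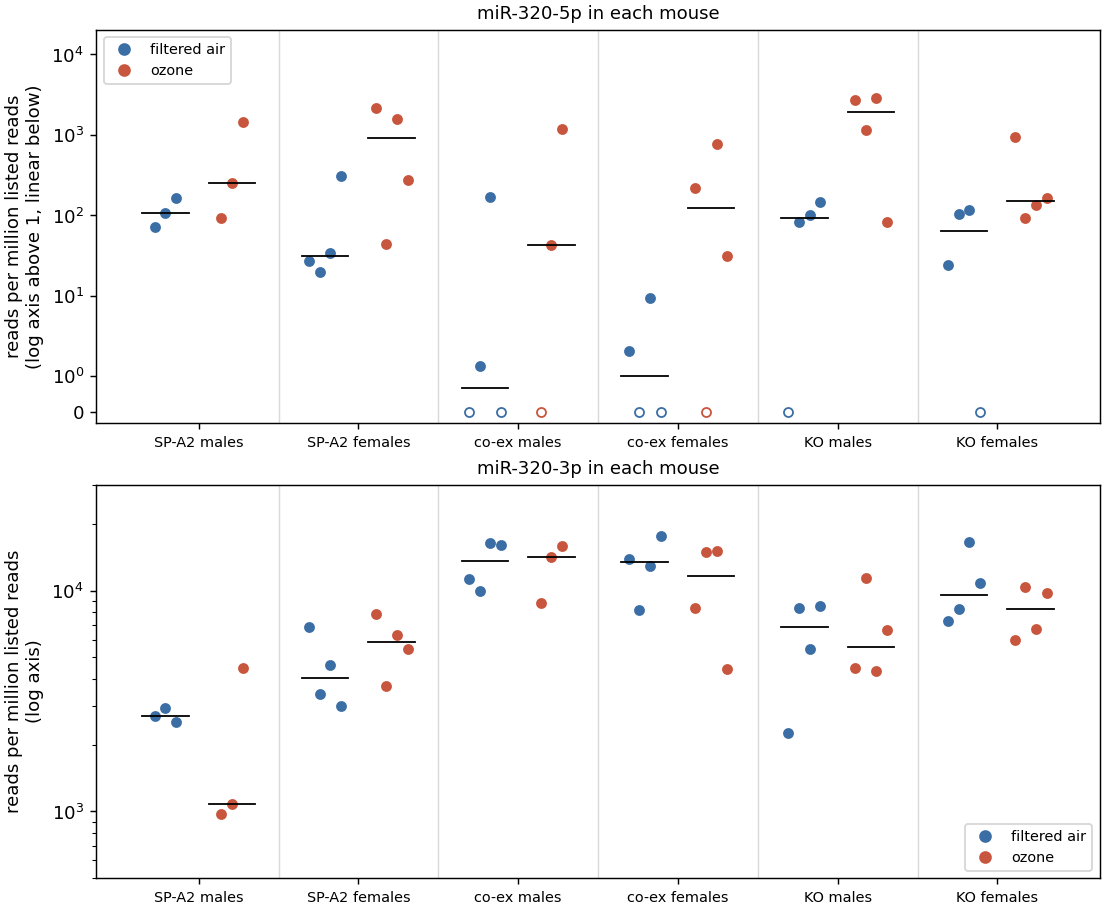
Reads per 1000000 listed reads (RPM) of miR-320-5p (upper plot, log axis above 1 and linear below) and miR-320-3p (lower plot, log axis) in each mouse, by genotype and sex, with a line at the group median and open circles for mice with 0 reads. The 5p arm reached 2907 RPM after O3 in a KO male, while the 3p arm stayed between 972 and 17682 in all 45 mice.

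In SP-A2 males, the 5p arm had 33, 80 and 115 reads after FA and 118, 354 and 1202 after O3. The 3p arm had 1252, 2172 and 1777 reads in the same FA mice and 1244, 1509 and 3678 in the O3 mice. The share of the 5p arm was therefore 2.57%, 3.55% and 6.08% after FA and 8.66%, 19.0% and 24.6% after O3, with no overlap between the groups. The nearest values were 6.08% (interval 5.04% to 7.25%) after FA and 8.66% (7.22% to 10.3%) after O3. Among the 105 hairpins of this table listed with both arms, 8.57% had a ratio of minor to major arm that was higher in every O3 mouse. On the normalized values of the table, the 5p arm was 96.3 ± 38.7 after FA and 494 ± 560 after O3 (SD, n = 3 each) and overlapped, a log2 change of 1.70 (SE 0.84). Without O3 replicate 3 this change was 0.74. The normalized 3p arm was 2294 ± 280 after FA and between 947 and 3467 after O3, a log2 change of -0.57 (SE 0.49).

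In SP-A2 females, the 5p arm had 20, 20, 17 and 119 reads after FA and 347, 69, 1456 and 212 reads after O3. The 3p arm had 5021, 3480, 2272 and 1152 reads after FA and 1276, 5726, 5811 and 4165 after O3. FA replicate 4 stood apart, with a share of 9.36% (interval 7.82% to 11.1%) against 0.397%, 0.571% and 0.743% in the other FA mice. Its library also differed in other small RNAs, with a normalized miR-6240 level of 65316 against 639 to 1206 in the other FA mice. After O3 the shares were 21.4%, 1.19%, 20.0% and 4.84%, so that 2 of the 4 O3 mice were above every FA mouse and the groups overlapped. The log2 change of the normalized 5p arm was 3.32 (SE 1.28) and that of the 3p arm 0.56 (SE 0.37).

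In co-ex males, miR-320-5p was close to its detection limit after FA, with 0, 2, 85 and 0 reads beside 1557, 14640, 8349 and 20910 reads of the 3p arm. In the 2 mice at 0, with 3 reads taken as the limit of a count of 0, a share of up to 0.193% and 0.0143% is allowed. The upper ends of their exact binomial intervals were 0.237% and 0.0176%. After O3 the 5p arm had 0, 73 and 812 reads and the 3p arm 15523, 23711 and 11040 reads. Replicate 3 after O3 had a share of 6.85% (interval 6.40% to 7.32%), replicate 2 had 0.307% and replicate 1 had 0, so that 1 of 3 O3 mice was above every FA mouse. The log2 change of the normalized 5p arm, 2.99 (SE 3.20), was smaller than its SE, and it was 0.67 without O3 replicate 3 and 5.65 without O3 replicate 1. The log2 change of the 3p arm was 0.08 (SE 0.49).

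In co-ex females, 1, 0, 7 and 0 reads of the 5p arm were found after FA, beside 6809, 1717, 9672 and 11066 reads of the 3p arm. After O3 the 5p arm had 191, 0, 333 and 44 reads and the 3p arm had 7291, 33873, 6596 and 6284. The highest share after FA was 0.0723% (interval 0.0291% to 0.149%). The O3 mice had shares of 2.55%, 0, 4.81% and 0.695%, so 3 of 4 were above every FA mouse, while replicate 2, with 33873 reads of the 3p arm, had no 5p read at all. The log2 change was 4.42 (SE 2.27) for the 5p arm and -0.13 (SE 0.48) for the 3p arm, and that of the 5p arm rested on 8 reads in the FA mice together.

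In KO males, 5p reads numbered 0, 60, 115 and 150 after FA and 1387, 469, 1684 and 15 after O3. The corresponding 3p reads were 6504, 5998, 6176 and 8769 after FA and 2279, 4601, 2493 and 1196 after O3. These O3 mice included the highest shares of the whole series, 37.8% (interval 36.3% to 39.4%) and 40.3% (38.8% to 41.8%), and another mouse had 9.25%. The remaining O3 mouse had 1.24% (0.695% to 2.03%), inside the range of the FA mice, which was 0 to 1.83%. The log2 change was 4.79 (SE 1.67) for the 5p arm and 0.16 (SE 0.47) for the 3p arm. FA replicate 1, the mouse with the most listed reads (2884013), had no 5p read, and without it the 5p change was 3.15. Every O3 mouse of this table had fewer listed reads (180625 to 579220) than every FA mouse (720987 to 2884013).

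In KO females, the 5p arm had 24, 97, 84 and 0 reads after FA and 754, 97, 104 and 162 reads after O3. The 3p arm had 7249, 7687, 11906 and 5934 reads after FA and 4748, 10761, 5189 and 9569 after O3. One O3 mouse stood out with a share of 13.7% (interval 12.8% to 14.6%), and the other three had 0.893%, 1.96% and 1.66% against 0 to 1.25% after FA. The log2 change was 3.01 (SE 1.76) for the 5p arm, or 1.51 without FA replicate 4, and -0.41 (SE 0.49) for the 3p arm.

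Over the 6 tables, 15 of 22 O3 mice had a share above every FA mouse of their own table. For the normalized 5p level this held for 12 of 22 mice, and for the normalized 3p level for 5 of 22. A share over 5% was found in 10 O3 mice and in 2 FA mice. The mean normalized 5p level was at least 2-fold higher after O3 in 6 of 6 tables and that of the 3p arm in none. Such a mean was also found for 30.5% of all miRNAs in the table of KO males and 27.9% for KO females, for 26.9% (males) and 30% (females) in the co-ex tables, and for 27% (males) and 24.7% (females) in the SP-A2 tables. The normalized 5p level did not separate the O3 from the FA mice in any table. Of all miRNAs, 6.1% (KO males), 3.14% (KO females), 6.41% (co-ex males), 5.86% (co-ex females), 12.7% (SP-A2 males) and 3.49% (SP-A2 females) were higher in every O3 mouse. The 3p levels overlapped between exposures in 6 of 6 tables as well.

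**Figure D2:**
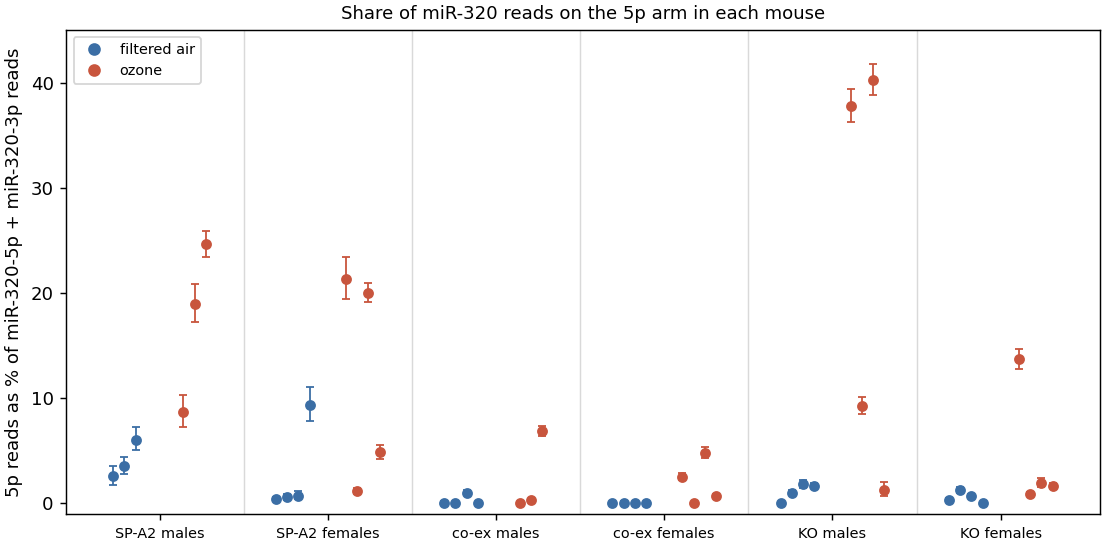
Share of 5p reads in the reads of both miR-320 arms (percent, vertical axis) in each mouse, with 95% exact binomial intervals as bars, by genotype and sex (horizontal axis). The share was at most 9.36% after FA and reached 40.3% after O3, and at least 1 O3 mouse of every table except SP-A2 males lay among the FA mice.

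The change of the log2 ratio of 5p to 3p reads from FA to O3 (0.5 reads added to each arm) was largest in KO males at 5.26 (SE 2.33). It was 3.98 (SE 2.82) in co-ex females, 3.56 (SE 1.86) in KO females, 2.78 (SE 1.51) in SP-A2 females, 2.51 (SE 3.46) in co-ex males and 2.28 (SE 0.65) in SP-A2 males, and neighbours in this order did not differ beyond their SE. With 5 reads added in place of 0.5 the change was 2.53 in co-ex females and 1.60 in co-ex males, the groups with the most mice at 0, so the order rests on that offset. It was above 0 in 6 of 6 tables. Without O3 replicate 3 the change in co-ex males was -0.11, so its direction there rested on that mouse.

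To see how other hairpins behaved, the same ratio was formed for every hairpin listed with both arms, as minor arm over major arm, the major arm having more reads over the mice of the table, so that for some hairpins the direction differed between tables. miR-320 was 1st of 69 hairpins by the size of the rise in KO males and 7th of 60 in KO females, where the median change after O3 was -0.30 and 0.35 on the log2 scale. It was 6th of 34 in co-ex males and 3rd of 56 in co-ex females (medians 0.60 and -0.16), and 11th of 105 in SP-A2 males and 5th of 85 in SP-A2 females (medians -0.21 and 0.29). The ratio was higher in every O3 mouse for 0% and 1.67% of these hairpins in the KO tables (males, then females), 2.94% and 0% in the co-ex tables and 8.57% and 2.35% in the SP-A2 tables. Of the 30 hairpins with both arms in all 6 tables, miR-320 had the highest median change, 3.17, and was above 0 in 6 of 6 tables, beside a median of -0.14 over the 30 hairpins. The hairpins next in order were miR-340 with 1.84, miR-22 with 1.69 and miR-351 with 1.55, each above 0 in 5 of 6 tables. For 10 of the 30 hairpins the minor arm was not the same in every table. With the minor arm set once for each hairpin by its reads over all 45 mice, an alternative added after the data were seen, miR-320 kept the same arm throughout and its median of 3.17 was again highest. Then 3 hairpins were above 0 in all 6 tables, miR-320, miR-671 (median 1.63) and miR-361 (1.08), and the hairpins next to miR-320 were miR-340 (1.74, above 0 in 4 of 6 tables), miR-22 and miR-671, with a median of 0.30 over the 30. At the other end, the median change, the same in both ways of setting the arms, was -2.34 for miR-92b, which was below 0 in all 6 tables, -1.44 for miR-25 and -1.32 for miR-877. miR-320 had been chosen for this behaviour, so its place is no test.

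**Figure D3:**
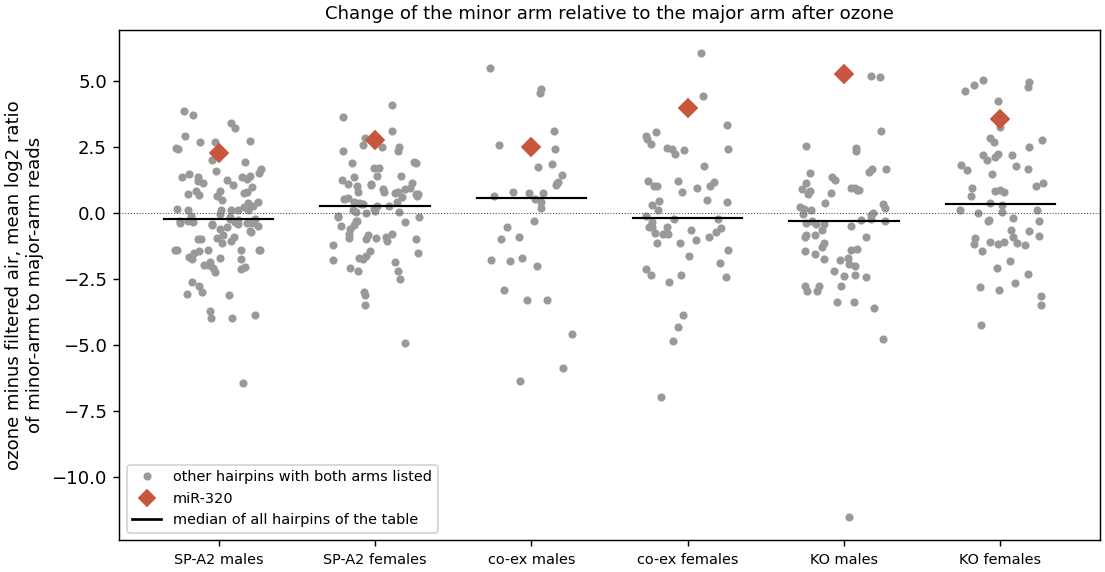
Change from FA to O3 of the mean log2 ratio of minor-arm to major-arm reads (vertical axis) for each hairpin listed with both arms, by table (horizontal axis), with miR-320 as a diamond and a line at the median of all hairpins. The miR-320 diamonds lie between 2.28 and 5.26, above the median line in every table, while other hairpins spread from -11.5 to 6.06.

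Other hairpins made without Drosha were examined as a list: miR-484, whose precursor is also capped, the mirtrons miR-702, miR-877 and miR-1224, which are cut out by splicing, miR-1839, derived from a small nucleolar RNA, and miR-344, of which no arm was listed. Their arms gave 33 values over the 6 tables, of which 0 passed an adjusted p of 0.1 in limma in either direction. At an unadjusted p under 0.05 there were 2, with no share over all miRNAs counted, and edgeR and DESeq2 on recovered reads called 0 each. Of all miRNAs, edgeR called 5 of 448 in SP-A2 males, 2 of 373 in SP-A2 females and 16 of 328 in KO males. It called 0 in KO females and in both co-ex tables. DESeq2 called 54 and 26 of these in SP-A2 males and females and 41 in KO males. It called 2 of 287 in KO females, 5 of 234 in co-ex males and 14 of 290 in co-ex females. Of all miRNAs, limma called 4.88% higher in KO males, 1.38% in co-ex females, 0.804% in SP-A2 females, 0.446% in SP-A2 males and 0% in KO females and co-ex males. It called 0.305%, 0%, 0.268%, 0.223%, 0% and 0% lower in the same order. The median log2 change of the list was -0.51, beside 0.22 for all miRNAs, and 10 of the 33 values were above 0.
miR-484, listed in all 6 tables, had log2 changes between -1.02 and -0.17 and mean normalized values between 1378 and 3559 after FA. miR-877-3p, with changes between -2.82 and -0.75, was also below 0 in 6 of 6 tables, while its other arm miR-877-5p ranged from -0.90 to 0.30. miR-1839-5p ranged from -2.38 to 3.02 and miR-1839-3p, in 4 tables, from -2.73 to 4.27. miR-702-3p ranged from -3.52 to 1.18 in 4 tables. miR-1224-3p was listed in co-ex females only, at 0.616 after FA and 1.66 after O3, with a change of 0.25.

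The level of each arm was then set beside that of the other 205 shared miRNAs over the 45 mice, after the mean of each table and exposure was subtracted. Levels of miRNAs in 1 library share its depth and composition, so the correlations are descriptions. The 5p and 3p arms were only loosely related to each other (Spearman's rho 0.45), and the 3p arm was 15th in likeness to the 5p arm. The 5p arm was most like miR-3473e (0.81), miR-6538 (0.76) and miR-3060-5p (0.74), whose correlations with the 3p arm were 0.25, 0.44 and 0.42. The 3p arm was most like miR-328-3p (0.82), miR-423-5p (0.74) and miR-8114 (0.72), whose correlations with the 5p arm were 0.24, 0.12 and 0.12. With only the mean of the table subtracted, so that the exposure remained in the values, the first 3 for the 5p arm were the same miRNAs, with 0.85, 0.79 and 0.80, and for the 3p arm they were miR-328-3p (0.83), miR-92a-3p (0.72) and miR-8114 (0.69). The roles of miR-3473e, miR-6538, miR-3060-5p and miR-8114 are little described, while miR-423-5p and miR-328-3p are widely expressed.

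**Figure D4:**
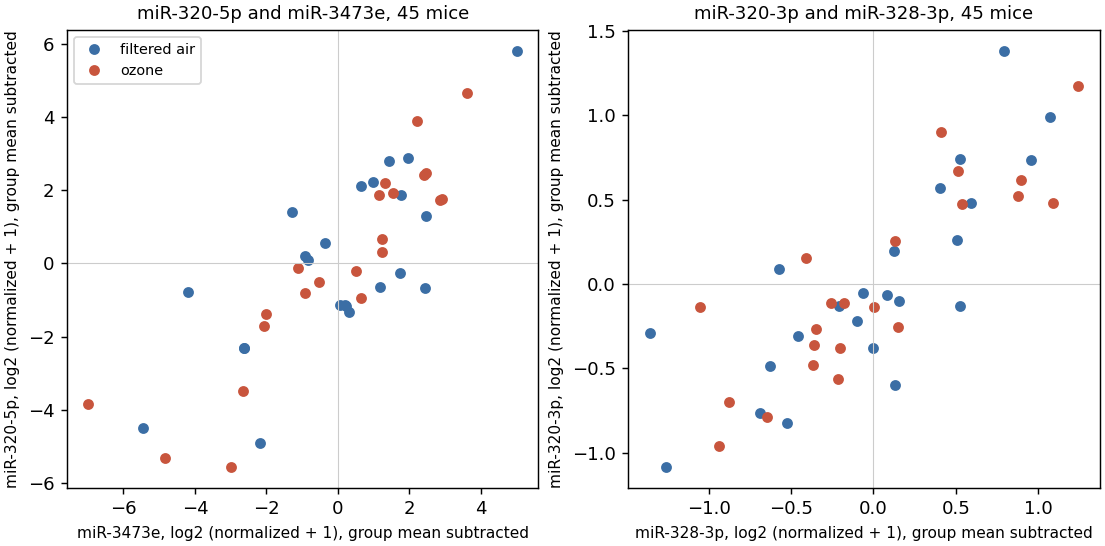
Left, miR-320-5p against miR-3473e, and right, miR-320-3p against miR-328-3p, in 45 mice, as log2 of the normalized value plus 1 with the mean of the mouse's group subtracted on both axes. Points of FA and O3 mice lie along the same diagonal, with Spearman's rho of 0.81 on the left and 0.82 on the right.

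The values of the KO males show the likeness in single mice. miR-3473e had 14, 122, 15 and 57 reads after FA and 456, 133, 567 and 0 reads after O3, beside 1387, 469, 1684 and 15 reads of the 5p arm in those O3 mice. miR-6538 had 19, 73, 153 and 372 reads after FA and 9902, 2678, 13984 and 93 after O3. Replicates 1 and 3 after O3 were highest, and replicate 4 lowest, for both of these miRNAs and for the 5p arm. After FA the order was less alike: miR-3473e was highest in replicate 2, the 5p arm and miR-6538 in replicate 4. Across tables, the log2 change after O3 lay between 1.00 and 3.76 for miR-3473e, between 1.99 and 6.30 for miR-6538 and between 2.09 and 7.30 for miR-3060-5p, above 0 in 6 of 6 tables for each. For the miRNAs like the 3p arm it lay between -1.01 and 0.40 (miR-328-3p), -0.58 and -0.16 (miR-423-5p) and -0.83 and 0.34 (miR-8114).
miR-2137, miR-1961 and miR-6240 were taken from earlier results of these data as higher after O3. They had correlations of 0.55, 0.52 and 0.55 with the 5p arm and 0.10, 0.33 and 0.33 with the 3p arm. Their log2 changes lay between 2.09 and 6.45, 0.82 and 5.52, and -0.47 and 3.36. The change was above 0 in 6 of 6 tables for miR-2137 and miR-1961 but in 4 of 6 for miR-6240.

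Depth and cell markers moved with the arms within groups. The log2 ratio of 5p to 3p reads had a Spearman correlation of -0.38 with the log2 number of listed reads. Exposure and depth were fully separated in KO males, where the O3 libraries had fewer listed reads. They were separated the other way in SP-A2 males, with 823908 to 1390373 listed reads after O3 against 463196 to 737471 after FA. The part of depth in the ratio was not tested. The 3p level had a correlation of 0.65 with the summed erythroid list and -0.74 with the summed macrophage markers, against 0.38 and -0.33 for the 5p level. The epithelial list had correlations of 0.33 with the 5p level and 0.03 with the 3p level, and the mesenchymal list had 0.27 and 0.30. The neutrophil and myeloid marker miR-223-3p had -0.25 and -0.56, lymphoid miR-150-5p 0.10 and -0.06, and the endothelial list 0.32 and -0.01. In 3 mice (co-ex male FA replicate 3, co-ex male O3 replicate 2 and KO female FA replicate 3) the 2 erythroid miRNAs listed in all tables, miR-451a and miR-486b-5p, made up between 358434 and 370823 RPM of the shared miRNAs, and each of these mice had the highest normalized 3p level of its group, 27431, 20364 and 23666. The part of red cells and macrophage number in the 3p level was not tested.

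Genotype and sex had no role in the choice of the arms, so they were tested, on recovered reads of the 206 shared miRNAs in counts per 1000000 reads (CPM) scaled by the trimmed mean of M values (TMM), in limma over all 45 mice with Benjamini-Hochberg adjustment and a threshold of 0.1. The 3p arm was lowest in SP-A2 mice. After FA, its level in the 7 SP-A2 mice had a lowest value of 2395, a median of 3133 and a highest value of 7277. It ranged from 7030 to 29048 (median 13528) in the 8 co-ex mice and from 3024 to 29161 (median 8968) in the 8 KO mice. The SP-A2 and co-ex mice overlapped by a single SP-A2 female at 7277. The log2 difference, SP-A2 minus co-ex, was -2.01 (SE 0.34, limma adjusted p = 1.6e-04), with the smallest p of the 206 miRNAs, in a comparison in which 41.7% of them passed.
After O3, the 3p level ranged from 3888 to 12482 (median 5968) in KO mice, from 4786 to 23489 (median 12581) in co-ex mice and from 995 to 7042 (median 3479) in SP-A2 mice. SP-A2 minus co-ex was -2.05 (SE 0.36, limma adjusted p = 2.2e-04), again with the smallest p of the 206, of which 14.6% passed (16 higher and 14 lower in SP-A2 mice, or 20 and 10 under plain CPM). The median over all 206 miRNAs of these differences was 1.02 after FA and 0.47 after O3. Relative to that median the 3p arm differed by -3.03 and -2.52, and by -3.05 and -2.52 under plain CPM. The median gives low and abundant miRNAs the same weight, and the part of miRNAs near 0 in it was not tested.

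**Figure D5:**
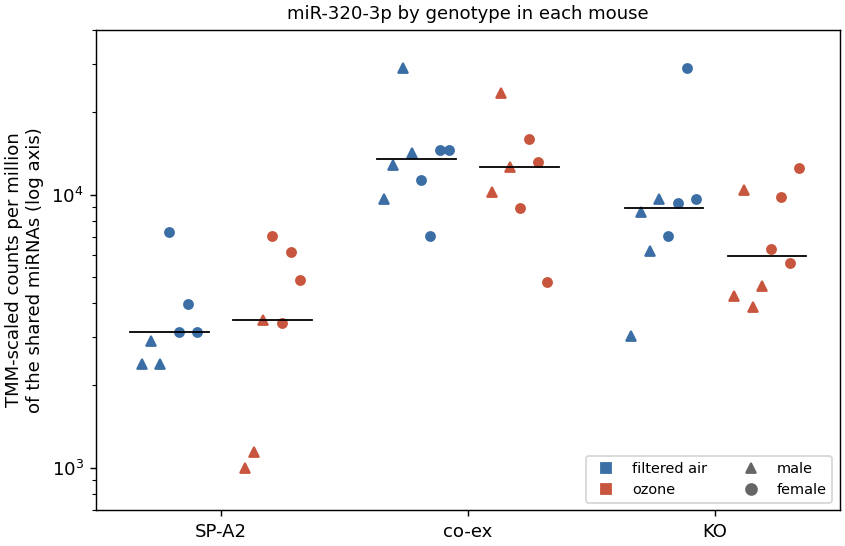
Level of miR-320-3p (vertical axis, TMM-scaled CPM of the shared miRNAs, log axis) in each mouse by genotype, with males as triangles, females as circles and a line at the median of each exposure. The SP-A2 medians, 3133 after FA and 3479 after O3, lie below the co-ex medians of 13528 and 12581 and the KO medians of 8968 and 5968.

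Against KO mice the 3p arm was lower in SP-A2 mice after FA by a log2 difference of -1.40 (SE 0.34, limma adjusted p = 0.0204), where 2.91% of the 206 miRNAs passed (1 higher and 5 lower in SP-A2 mice, or 2 and 3 under plain CPM). This difference was -0.77 (adjusted p = 1.00) without the 12 mice in which erythroid miRNAs exceeded 100000 RPM, an alternative chosen after the data were seen that leaves 3 of the 8 KO mice after FA. Both differences from co-ex mice stayed past the threshold without those 12 mice, at -1.80 and -2.05. After O3, SP-A2 minus KO was -1.20 (SE 0.34, limma adjusted p = 0.252) and did not pass. limma, edgeR and DESeq2 called 0 of the 206 miRNAs in that comparison, with 19 at an unadjusted p under 0.05 in limma. Co-ex and KO mice did not differ past the threshold in the 3p arm, at 0.61 (SE 0.33, adjusted p = 0.254) after FA and 0.85 (SE 0.34, adjusted p = 0.364) after O3, where 10.2% and 0.971% of the miRNAs passed.
Macrophage markers and red-cell miRNAs also differed between these genotypes. The group median of the summed macrophage markers after FA was 81845 (males) and 39086 (females) RPM in KO mice, 14617 and 70233 in co-ex mice and 183529 and 100733 in SP-A2 mice. The erythroid list had group medians after FA, males first, of 67320 and 125350 in KO, 54516 and 23270 in co-ex and 26561 and 17437 in SP-A2 mice. Their part in the genotype differences was not tested. The numbers that close the sample titles run in blocks by genotype, and within a genotype by sex and exposure. What these numbers stand for, and whether all libraries were made together, is not given in the sources used here. If the libraries were made in that order, genotype, sex and exposure cannot be told apart from library block.

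The 5p arm differed the other way between SP-A2 and co-ex mice. After FA it was at 18.0 to 325 (median 63.1) TMM-scaled CPM in SP-A2 mice and at 0 to 296 (median 0.834) in co-ex mice, of which 4 were at 0. The log2 difference was 4.32 (SE 1.51, limma adjusted p = 0.0207), a fitted value that depends on the pseudocount where mice are at 0. It was 2.26 with a pseudocount of 10 (adjusted p = 0.0906), and 2.71 in edgeR (adjusted p = 0.159), which does not pass. Of all 206 miRNAs, 41.7% passed in limma in this comparison, 67 higher and 19 lower in SP-A2 mice. Their median log2 difference was 1.02, also higher in SP-A2 mice, and the 5p arm was 65th of the 206 by limma p. In KO mice the 5p level after FA was 0 to 206 (median 101). After O3, the 5p level ranged from 58.1 to 2627 (median 609) in KO mice, from 0 to 925 (median 72.3) in co-ex mice and from 40.8 to 1915 (median 269) in SP-A2 mice, and none of the 3 differences between genotypes passed (limma adjusted p between 0.271 and 0.957).

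Read by read within a mouse, the arms were most unequal in co-ex mice. The mean log2 ratio of 5p to 3p reads was -5.52 in SP-A2 mice, -8.39 in KO mice and -11.8 in co-ex mice after FA. After O3 it was -3.97 in KO mice and -8.60 in co-ex mice. SP-A2 exceeded co-ex mice by 6.32 after FA (two-sided exact permutation test within sex, p = 8.2e-04, 0.0147 after Benjamini-Hochberg adjustment over the 18 tests computed). In the 4 co-ex mice with no 5p read the ratio is set by the 0.5 reads added and by the 3p reads, and the difference was 4.30 with 5 reads added and 7.56 with 0.1 (exact permutation, adjusted p = 0.022 and 0.0294). After O3 the excess was 5.60 (exact permutation p = 0.01, adjusted 0.09), and leaving out any of 9 of the 14 mice raised the adjusted p to as much as 0.192. SP-A2 minus KO was 2.86 after FA and 0.98 after O3, and co-ex minus KO was -3.46 and -4.62, none past the threshold (exact permutation, adjusted p between 0.192 and 0.733).

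No difference by sex passed the threshold for either arm in limma or for the ratio in the permutation test, while DESeq2 called 1 for each arm. None of the 6 comparisons of females with males for the 5p arm passed the threshold (smallest limma adjusted p 0.824), nor for the 3p arm (0.179) or the ratio (exact permutation, 0.588). Of all 206 miRNAs, limma called 1.46% in co-ex mice after FA, 1.46% in KO mice after O3 and 0% in the other 4 comparisons. For the 5p arm, the 3p arm and the ratio, 0, 1 and 0 of the 6 had an unadjusted p under 0.05. That 1 was the 3p arm in SP-A2 mice after O3, which was 1.71 (SE 0.51) higher on the log2 scale in the 4 females than in the 3 males, the smallest p of the 206 miRNAs. limma and edgeR called 0 of the 206 there, with 15 at an unadjusted p under 0.05 in limma. DESeq2 called 11, miR-320-3p among them (1.51, adjusted p = 0.062). Its call for miR-320-5p was in co-ex mice after FA, -4.66 in females relative to males (adjusted p = 0.0892), where 6 of the 8 mice had at most 2 reads of that arm. For the 3p arm in SP-A2 mice after O3, without SP-A2 male O3 replicate 3 the limma value was 2.27 (adjusted p = 0.0258).
The change from FA to O3 comes from the values that chose the arms, so its differences between females and males of each genotype and between genotypes are a description. The differences in response ranged from -1.53 to 1.51 for the 5p arm, from -0.28 to 1.02 for the 3p arm and from -1.89 to 1.46 for the ratio, on the log2 scale.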

How the data were processed

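The 6 tables that the authors deposited, split by genotype and sex, give each miRNA a normalized signal in each mouse, which is its read number over a scaling factor for that mouse. Deposited p-value, q-value and rank columns of FA against O3 were not used. The submitters' notes name CASAVA and edgeR. The study's methods name edgeR and the package TCC, while the deposited data are labelled DESeq2, so the tool behind the scaling factors is not certain. The aligner, miRNA reference and genome build are not given in the sources used here. In every mouse 100% of values were whole multiples of 1 step (tolerance 0.001 steps), which returned whole reads. At least 100 values lay within 20 steps in 8 mice, and as few as 14 in others, where recovery rests on the full precision of all values. Total reads are sums over listed miRNAs.

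O3 and FA were compared within a table on log2(normalized value + 1) with limma 3.58.1 (R 4.3.3, eBayes with trend, Benjamini-Hochberg, FDR 0.1). Genotypes and sexes were compared on log2(TMM-scaled CPM + 1) of recovered reads over the 206 shared miRNAs, and the ratio by exact permutation. Mice were grouped by the labels and each was 1 replicate. The study's text gives 3 co-ex males per exposure, the labels 4 after FA, and all 4 were used. Alternatives were edgeR 4.0.16 and DESeq2 1.42.0 on recovered reads, other scalings, pseudocounts of 0.1 and 10, read offsets of 0.1 and 5, removal of low values (minimum 10), a replicate block, and each mouse left out. The limma fits were first checked on simulated counts, with a spread between mice smaller than that of the 5p arm. edgeR and DESeq2 were not part of that check.

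Members and lists were chosen with earlier results of these data known. Named miRNAs are the 2 arms, the 3 most like each arm, the 3 highest and 3 lowest of the hairpins with both arms in all tables, the list made without Drosha, markers where a result turned on them, and miR-2137, miR-1961 and miR-6240. miR-92a-3p, miR-671 and miR-361 were named after their values were seen, and setting the minor arm once for each hairpin and leaving out mice rich in erythroid miRNAs were added then.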

Additional observations from a re-analysis of the deposited data

Results flagged for a closer look

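In 27 groups of 4 mice (2 arms and their ratio), the highest or lowest mouse was tested for a gap to the rest, and 5 gaps passed Dixon's 95% limit, where chance gives about 1 in 20. The 5p arm, as log2 of the normalized value plus 1, was far above the other mice in SP-A2 female FA replicate 4 (8.03) and co-ex male FA replicate 3 (8.13). It was far below in KO male FA replicate 1, at 0, and the log2 ratio of 5p to 3p reads in that mouse was -13.7. The 3p arm was far above the others in KO male O3 replicate 2 (13.3).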

How the results depend on the processing

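Numbered mice were not paired: deviations of same-numbered FA and O3 mice had correlations between -0.138 and 0.271, and in no table was every one above 0.1. With the number as a replicate block, the ratio difference of SP-A2 from co-ex mice was 5.68 after FA and 5.60 after O3. Neither passed the threshold under this block (exact permutation, adjusted p = 0.141 for both). The block allows few exchanges of mice, which limits how small the unadjusted p can be. The block changed no other call. Under edgeR the 5p difference of SP-A2 from co-ex mice after FA was 2.71, and as a share in percent the ratio difference of SP-A2 from KO mice after FA was 2.57 percentage points (exact permutation, adjusted p = 0.0588). Under DESeq2, 1 of the 6 sex comparisons of the 5p arm passed, that of co-ex mice after FA. Without the mice rich in erythroid miRNAs, SP-A2 minus KO for the 3p arm after FA was -0.77. Of 267 values under alternatives that kept all mice or left out those rich in erythroid miRNAs, 260 kept their direction and side of the threshold or moved by less than the spread between mice. Some of these could hardly change. The low-value filter left every value of the 45-mouse fit as it was, and changes of the share in percent were judged by direction alone. DESeq2 gave no adjusted p for the 5p arm in SP-A2 minus KO after FA, which was counted as not passing.

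With each mouse left out, the ratio difference of SP-A2 from co-ex mice after O3 ranged from 4.12 to 6.91 and that of co-ex from KO mice after FA from -4.41 to -2.82, past the threshold without KO male FA replicate 1 or KO female FA replicate 4. Co-ex minus KO after FA ranged from -4.12 to -2.67 for the 5p arm (past the threshold without 3 of the mice) and from 0.44 to 0.83 for the 3p arm (past it without KO female FA replicate 3). SP-A2 minus KO after O3 ranged from -0.85 to 0.34 for the 5p arm and from -1.48 to -1.03 for the 3p arm, which passed without SP-A2 male O3 replicate 3. The cause was not tested.

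The number of the 206 miRNAs past the threshold also depended on the tool. For SP-A2 minus co-ex after FA it was 86 in limma, 53 in edgeR and 70 in DESeq2. For SP-A2 minus KO after FA it was 6, 14 and 21, and for co-ex minus KO after FA it was 21, 0 and 12.

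With each mouse left out, the 5p change after O3 ranged from 0.74 to 2.56 in SP-A2 males, 2.51 to 4.48 in SP-A2 females, 0.67 to 5.65 in co-ex males, 3.12 to 6.27 in co-ex females, 3.15 to 6.06 in KO males and 1.51 to 3.98 in KO females, and the low-value filter removed the 5p arm in co-ex females. The other settings moved it between 2.90 and 6.40 for co-ex females and between 1.92 and 3.73 for co-ex males. With a mouse left out, the 3p change crossed 0 in co-ex males (-0.15 to 0.41), co-ex females (-0.41 to 0.19), KO males (-0.20 to 0.40) and KO females (-0.66 to 0.05). Over the other settings it crossed 0 in co-ex males (-0.20 to 0.09) and KO males (-0.29 to 0.19). Low 5p counts in FA mice limit the size of the 5p change.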

Other observations

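Under FA, miR-320-5p was listed in all 6 tables while 4 of the 8 co-ex mice had no 5p read, beside between 1557 and 20910 reads of the 3p arm in these 4 mice. In the 2 O3 mice with no 5p read, co-ex male replicate 1 and co-ex female replicate 2, the 3p arm had 15523 and 33873 reads. With 3 reads taken as the limit of a count of 0, this allows a 5p share of up to 0.0193% and 0.00886%. The other mice at 0 were KO male FA replicate 1 and KO female FA replicate 4, with 6504 and 5934 reads of the 3p arm. Polr3d, whose start faces Mir320, encodes a subunit of RNA polymerase III. No messenger RNA was measured in these libraries.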
